A study of Rattus norvegicus with 30 samples.

Results

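The promoter windows of Gfap, Aqp4 and S100b, 3 genes used as markers of astrocytes, were described in MBD-seq counts of rat brain after traumatic brain injury (TBI). The windows were chosen by Ensembl identifier, ENSRNOG00000002919 for Gfap, ENSRNOG00000016043 for Aqp4 and ENSRNOG00000001295 for S100b, and not by their values. They were 3 of 20196 identifiers and held 5 of the 22307 rows of each promoter table. Gfap and Aqp4 had 2 rows each with equal counts in all 30 libraries, and each pair was counted as 1 window. The tables paired no gene symbols with identifiers, so the names rest on the identifiers alone. The rats were adult male Sprague-Dawley, 5 with lateral fluid-percussion injury and 5 sham-operated with the same anesthesia and craniectomy but no impact. Perilesional cortex, hippocampus and thalamus of the injured side were taken 3 months after the operation, and the labels describe the hippocampal piece as dentate gyrus with part of CA3. Rats 1 to 5 were sham-operated and rats 6 to 10 had TBI, so each group of a tissue held 5 libraries.

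Astrocytes are glial cells that buffer ions and water, feed neurons and react to injury by growth of their processes and a change of gene expression. Gfap encodes the intermediate filament protein whose rise is the usual sign of a reactive astrocyte. Aqp4 encodes the water channel of astrocyte endfeet around blood vessels, and S100b encodes a calcium-binding protein of mature astrocytes that is also measured in blood after head injury. Methylation of the Gfap promoter is known to fall when neural precursors become able to form astrocytes. MBD-seq captures DNA fragments that carry methylated CpG sites and counts their reads, so a window's count depends on its methylation, its number of CpG sites and the capture, and is no percentage of methylation. The tissue pieces held many cell types, and a change of methylation within astrocytes cannot be told apart from a change in the share of astrocytes. For the same reason the label of astrocyte markers could not be checked in these DNA counts.

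The 250 bases before the annotated start of each gene are shown because capture needs CpG sites, which are in capitals and all other bases in lower case. They are RefSeq sequences of the GRCr8 assembly, read 5′ to 3′ on the gene's own strand, which was the minus strand for all 3 genes. The counts were made on another build, Rnor_5.0, over windows of 5200 bases (5000 before and 200 after the start). A stretch lies near the inner end of its window only where both use the same start. The windows themselves were not compared base by base. Aqp4 has 2 annotated starts in this table, and which of them its counted window belongs to was not determined.
Gfap, chr10:88361662-88361911: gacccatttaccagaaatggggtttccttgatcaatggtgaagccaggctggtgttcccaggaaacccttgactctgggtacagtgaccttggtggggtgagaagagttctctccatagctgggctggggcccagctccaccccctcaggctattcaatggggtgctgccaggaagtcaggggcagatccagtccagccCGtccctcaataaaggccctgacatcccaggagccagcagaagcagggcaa
Aqp4, first start, chr18:6798843-6799092: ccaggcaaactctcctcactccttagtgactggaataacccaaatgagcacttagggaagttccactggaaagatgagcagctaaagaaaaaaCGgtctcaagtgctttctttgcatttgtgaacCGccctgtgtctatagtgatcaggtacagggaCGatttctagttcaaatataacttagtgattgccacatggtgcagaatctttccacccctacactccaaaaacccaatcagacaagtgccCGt
Aqp4, second start, chr18:6797927-6798176: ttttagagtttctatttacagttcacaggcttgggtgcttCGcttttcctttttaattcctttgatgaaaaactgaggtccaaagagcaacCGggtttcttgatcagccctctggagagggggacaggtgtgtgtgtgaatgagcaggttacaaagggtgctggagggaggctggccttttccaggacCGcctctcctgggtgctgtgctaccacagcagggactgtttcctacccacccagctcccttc
S100b, chr20:12381082-12381331: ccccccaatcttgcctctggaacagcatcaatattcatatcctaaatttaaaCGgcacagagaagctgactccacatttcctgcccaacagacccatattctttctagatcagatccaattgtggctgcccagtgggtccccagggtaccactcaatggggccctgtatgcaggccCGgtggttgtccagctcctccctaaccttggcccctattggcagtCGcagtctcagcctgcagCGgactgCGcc

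Gfap and Aqp4 had fewer CpG sites next to their starts than the median promoter, and S100b had as many. The Gfap stretch held 1 CG, the Aqp4 stretches held 4 and 3, and the S100b stretch held 5, where the median of 33469 RefSeq promoters of the same length was 5. A share of 7.83% of those promoters held fewer CG than Gfap, and 44.7% held fewer than S100b. Motifs of STAT, AP-1 and NFI factors were searched on both strands. The STAT motif TTCNNNGAA, in 7.67% of all promoters, and the AP-1 motif TGANTCA, in 6.34%, were in none of the 4 stretches. The NFI half-site TTGGC, in 40.3% of all promoters, occurred 2 times in S100b and not in Gfap or Aqp4. These are matches of letters in 250 bases only and say nothing of binding.

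The promoter counts of a library summed to between 1862708 and 3992056 in cortex, 1430875 and 2440662 in hippocampus, and 2675177 and 4227800 in thalamus. Levels are given as CPM, counts per 1000000 in the tested windows after TMM scaling over all 30 libraries. All windows had the same length, so levels can be compared between the genes per length, although CpG content differs. The median window had 31.0 CPM in the cortex, 28.1 CPM in the hippocampus and 32.0 CPM in the thalamus. When each library was correlated with each tissue's mean over its other libraries, over log2 CPM of all windows except the 3 genes, 3 libraries were closest to another tissue than their label. The hippocampus library of sham rat 5 had r = 0.951 with cortex and 0.853 with hippocampus. In the cortex, the libraries of rat 4 (sham) and rat 6 (TBI) had r = 0.968 and 0.961 with hippocampus against 0.907 and 0.884 with cortex. Results that rest on these libraries are given with and without them, and their labels were kept. Leaving them out was decided after the data were seen, by likeness to another tissue, which by itself favours larger differences between cortex and hippocampus. Without them, edgeR calls between hippocampus and cortex at an adjusted p under 0.05 rose from 12093 to 14251 over all windows. Tissue differences without them are therefore a description and no separate support.

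Gfap promoter counts showed no difference between TBI and sham larger than the spread between rats in any tissue. In the cortex, the CPM of Gfap were 40.2, 50.7, 36.9, 43.1 and 32.6 in sham rats 1 to 5, and 43.8, 41.8, 37.9, 42.8 and 43.2 in TBI rats 6 to 10. The TBI values lay within the sham range. In the hippocampus, Gfap had 36.1, 33.5, 31.4, 47.0 and 29.1 CPM in sham rats, and 26.1, 28.6, 39.6, 35.9 and 25.2 CPM in TBI rats. Sham rat 4 was the highest and the groups overlapped. In the thalamus, Gfap had 47.3, 40.9, 48.8, 46.1 and 40.5 CPM in sham rats and 46.3, 41.6, 38.9, 51.7 and 48.4 CPM in TBI rats, again with overlap. The mean ± SD (n = 5 each) was 40.7 ± 6.81 CPM for sham and 41.9 ± 2.35 CPM for TBI cortex, 35.4 ± 6.98 and 31.1 ± 6.36 CPM in the hippocampus, and 44.7 ± 3.80 and 45.4 ± 5.16 CPM in the thalamus. The log2 fold change of Gfap by edgeR's quasi-likelihood test was 0.04 in the cortex (95% confidence interval −0.30 to 0.38), −0.16 in the hippocampus (−0.55 to 0.24) and 0.03 in the thalamus (−0.20 to 0.27). The values in the cortex and the thalamus changed sign with scaling by library totals (−0.04 in both). The hippocampal value was −0.04 without sham rat 4, −0.08 without TBI rat 10, −0.10 without TBI rat 6, −0.26 without TBI rat 8 and −0.30 without sham rat 5 and TBI rat 9 together.

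**Figure D1:**
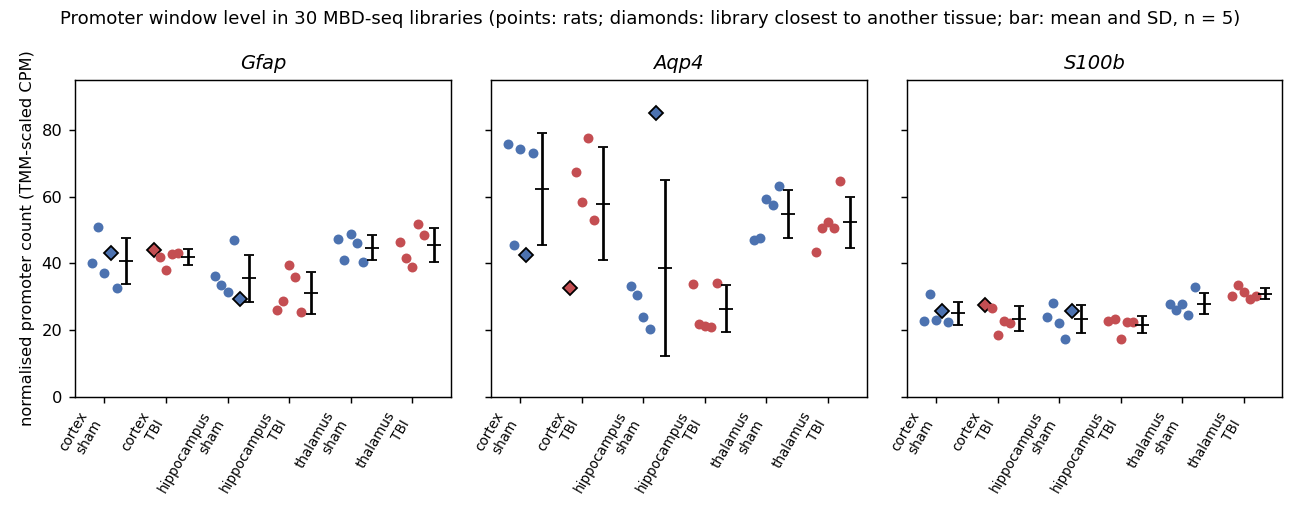
Promoter level (TMM-scaled CPM, vertical axis) of Gfap, Aqp4 and S100b in 6 groups of 5 rats, sham in blue and TBI in red, with the mean and SD beside the points. Sham and TBI points overlap in every tissue, and the diamonds mark the 3 libraries closest to another tissue, of which the hippocampus library of sham rat 5 has 84.9 CPM of Aqp4 while the other 4 sham rats have 20.3 to 33.2 CPM.

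By its mean, Aqp4 was the most captured of the 3 windows in cortex and thalamus, and it varied most between rats. In the cortex, Aqp4 had 75.7, 45.5, 74.4, 42.5 and 72.9 CPM in sham rats 1 to 5, and 32.6, 67.4, 58.3, 77.6 and 53.1 CPM in TBI rats 6 to 10. The groups overlapped, and the lowest value of each was a library closest to the hippocampus (sham rat 4 and TBI rat 6). In the hippocampus, Aqp4 had 33.2, 30.5, 24.0, 20.3 and 84.9 CPM in sham rats, and 33.9, 21.7, 21.3, 20.8 and 34.2 CPM in TBI rats. Sham rat 5, with 169 counts against 32 to 40 in the other sham rats, was the library closest to the cortex, and all other values of both groups lay between 20.3 and 34.2 CPM. In the thalamus, Aqp4 had 46.9, 47.4, 59.2, 57.4 and 63.1 CPM in sham rats and 43.3, 50.7, 52.2, 50.7 and 64.5 CPM in TBI rats, with overlap. The mean ± SD (n = 5 each) was 62.2 ± 16.7 CPM for sham and 57.8 ± 16.9 CPM for TBI cortex, 38.6 ± 26.4 and 26.4 ± 7.02 CPM in the hippocampus, and 54.8 ± 7.27 and 52.3 ± 7.69 CPM in the thalamus.

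The log2 fold change of Aqp4 between TBI and sham was −0.11 in the cortex (95% confidence interval −0.64 to 0.42), −0.56 in the hippocampus (−1.32 to 0.20) and −0.06 in the thalamus (−0.32 to 0.21). None passed the test (edgeR quasi-likelihood, Benjamini-Hochberg adjusted p = 1.00 in each tissue). The hippocampal difference was larger in size than that of all but 5.07% of the windows, and it rested on sham rat 5: without that rat it was −0.01. In the cortex the value was −0.05 without sham rat 4 and TBI rat 6 and turned to 0.03 without TBI rat 6 alone. It also turned to 0.05 with sample quality weights (limma voom), a setting that gave 0.01 in the thalamus.

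**Figure D2:**
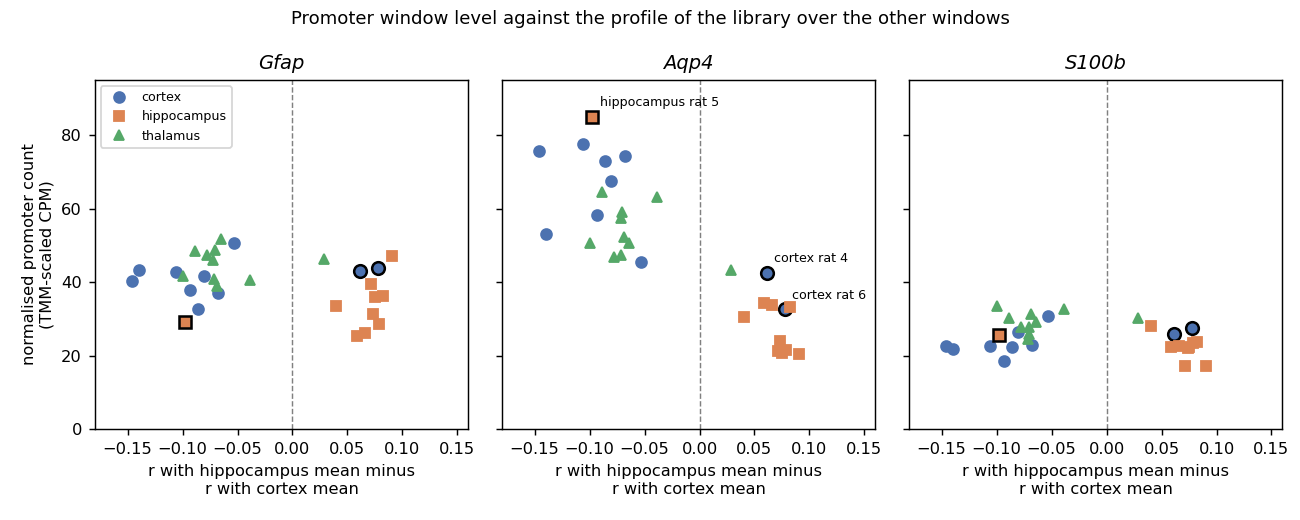
Promoter level (TMM-scaled CPM, vertical axis) of each gene in 30 libraries against the profile of the library over the other windows, as its r with the hippocampus mean minus its r with the cortex mean (horizontal axis), with tissues by colour and marker and the 3 libraries closest to another tissue outlined in black. For Aqp4, hippocampus rat 5 (84.9 CPM) lies on the side of the cortex libraries, and cortex rats 4 and 6 (42.5 and 32.6 CPM) lie on the side of the hippocampus libraries.

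In these 3 libraries the Aqp4 level moved with the profile of the other windows. The hippocampus library of rat 5 exceeded every cortex library (highest 77.6 CPM), the cortex library of rat 6 lay within the range of the other hippocampus libraries (20.3 to 34.2 CPM), and that of rat 4 lay above this range and below the other cortex libraries (lowest 45.5 CPM). The part of these profiles in the Aqp4 levels was not tested. Without the 3 libraries, Aqp4 had 65.6 ± 11.9 CPM (SD, n = 8, range 45.5 to 77.6) in the cortex and 26.7 ± 6.15 CPM (SD, n = 9, range 20.3 to 34.2) in the hippocampus, with no overlap between the tissues. Leaving libraries out for likeness to another tissue favours such a separation. With all libraries the ranges were 32.6 to 77.6 CPM and 20.3 to 84.9 CPM. Gfap had 40.8 ± 5.34 CPM and 33.7 ± 6.94 CPM, and S100b 23.6 ± 3.65 CPM and 22.1 ± 3.37 CPM, in the same 8 and 9 libraries, with overlap.

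S100b was the least captured of the 3 windows in every tissue by its mean and showed no difference between TBI and sham that passed the test. In the cortex, S100b had 22.6, 30.8, 23.0, 25.8 and 22.4 CPM in sham rats 1 to 5 and 27.5, 26.6, 18.5, 22.6 and 22.0 CPM in TBI rats 6 to 10. The groups overlapped. In the hippocampus, S100b had 23.7, 28.2, 22.1, 17.2 and 25.6 CPM in sham rats and 22.6, 23.4, 17.1, 22.4 and 22.4 CPM in TBI rats, with overlap. In the thalamus, S100b had 27.8, 26.0, 27.9, 24.5 and 32.8 CPM in sham rats and 30.2, 33.5, 31.3, 29.2 and 30.2 CPM in TBI rats. Here all 5 TBI rats exceeded 4 of the 5 sham rats, and sham rat 5 lay within the TBI range. The mean ± SD (n = 5 each) was 24.9 ± 3.56 CPM for sham and 23.4 ± 3.67 CPM for TBI cortex, 23.4 ± 4.14 and 21.6 ± 2.52 CPM in the hippocampus, and 27.8 ± 3.14 and 30.9 ± 1.62 CPM in the thalamus. The log2 fold change of S100b was −0.10 in the cortex (95% confidence interval −0.50 to 0.31), −0.10 in the hippocampus (−0.54 to 0.34) and 0.16 in the thalamus (−0.10 to 0.42). The thalamic value had p = 0.0794 in the exact two-sided permutation test of log2 CPM and an adjusted p of 0.714 over the 9 tests of that family. Without sham rat 5 the groups did not overlap, and the difference in log2 CPM was 0.219 (exact p = 0.0159, the smallest that 4 against 5 rats allow, adjusted p = 0.143), while edgeR gave 0.22 with an adjusted p of 1.00. Sham rat 5 was the only sham rat within the TBI range, so leaving it out fixed this exact p in advance. It is no separate support, and the adjusted p does not cover the choice of rat. With any other single rat left out, the exact p was 0.0794 to 0.159.

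Of the 3 genes, 0 were called between TBI and sham in each tissue at an adjusted p under 0.05, where 0% of all windows were called: 0 of 22110 in the cortex, 0 of 20017 in the hippocampus and 0 of 21894 in the thalamus by edgeR. At an unadjusted p under 0.05, edgeR held 161, 477 and 204 windows and DESeq2, which also called 0 windows in each tissue, held 185, 394 and 176, and none of the 3 genes was among those of edgeR. Tests with no true difference hold a share of 0.05 on average. All of these counts are below it, but windows share their libraries and are not independent tests. Whether the tests were too strict here was not tested. Without the 7 libraries known to stand apart (listed below), edgeR held 1487 of 22098, 586 of 19255 and 1268 of 21978 windows, with 0 called. A call of 0 is thus no sign that TBI left the windows unchanged. A common-dispersion exact test of edgeR called 7 cortex, 156 hippocampus and 0 thalamus windows with library totals, and 25, 156 and 3 with TMM, and none of the 3 genes. The Aqp4 window came nearest in that test, with −0.73 in the hippocampus with library totals, an unadjusted p of 0.0139 and an adjusted p of 0.545, sham rat 5 included. This exact test used 1 dispersion for all windows, so the spread of Aqp4 itself between rats did not enter its p. In the exact two-sided permutation tests over rats, for which 0.00794 is the smallest possible p, the adjusted p was at least 0.714 for log2 CPM and at least 0.643 for the rank in the library.

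**Figure D3:**
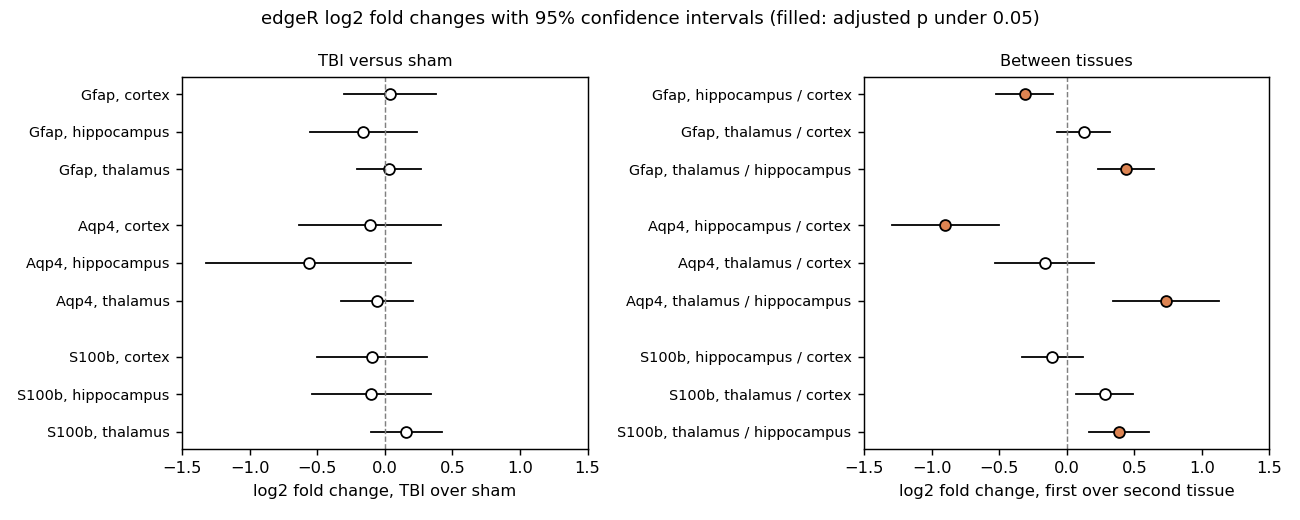
Log2 fold changes by edgeR (horizontal axis) with 95% confidence intervals, TBI over sham on the left and between tissues on the right, filled where the adjusted p was under 0.05. All 9 intervals of TBI against sham include 0, and the 5 filled points are the hippocampus against another tissue, from −0.90 and −0.31 against the cortex (Aqp4 and Gfap) to 0.39, 0.44 and 0.73 for thalamus over hippocampus (S100b, Gfap and Aqp4).

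The intervals give the sizes left possible. For Gfap, the widest was in the hippocampus, from −0.55 to 0.24. For Aqp4 in the hippocampus it reached −1.32, and the spread between sham rats was 68.4% of the mean, where counting error alone gives 12.6%. Both values include sham rat 5, the hippocampus library closest to the cortex, at 84.9 CPM. The rest of its group ranged from 20.3 to 33.2 CPM. When rat 5 was left out, the log2 fold change was −0.01, with an interval from −0.46 to 0.44. For Gfap in the TBI cortex the spread was 5.60%, under the 10.5% that counting alone gives on average. The S100b window, with 25 to 51 counts in the sham hippocampus, had a spread of 17.7% where counting gives 16.9%, close to counting error alone.

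Unlike TBI and sham, the tissues held differences that passed the test, with lower Gfap and Aqp4 promoter counts in the hippocampus than in the other tissues. The Gfap call against the cortex was lost in some settings. Over 10 rats, Aqp4 had 60.0 ± 16.0 CPM (SD) in the cortex, 32.5 ± 19.3 CPM in the hippocampus and 53.5 ± 7.18 CPM in the thalamus. Gfap had 41.3 ± 4.84, 33.3 ± 6.70 and 45.1 ± 4.29 CPM, and S100b had 24.2 ± 3.50, 22.5 ± 3.36 and 29.3 ± 2.86 CPM. The tissues were counted in separate tables, and the study's methods describe, by reference to its RNA-sequencing, another instrument for the thalamus, where the labels name the same for all. Tissue and its library preparation or sequencing run cannot be told apart.

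Between hippocampus and cortex, Aqp4 had a log2 fold change of −0.90 ± 0.194 (SE, adjusted p = 0.000578, edgeR over 30 libraries) and was lower in 8 of 10 rats, with rats 5 and 6 as exceptions. Without the 3 libraries closest to another tissue it was −1.31 ± 0.132 (adjusted p = 4.86e-11). That setting favours a larger difference, since the libraries were left out for their likeness to another tissue. Gfap had −0.31 ± 0.104 (adjusted p = 0.0109) and was lower in 8 of 10 rats. That call was lost without rat 6 (adjusted p = 0.0752) and without the 7 libraries known to stand apart from their group, cortex rats 1, 4, 6 and 10, hippocampus rats 5 and 9 and thalamus rat 6 (−0.23, adjusted p = 0.109). S100b had −0.11 ± 0.112 (95% confidence interval −0.34 to 0.12, adjusted p = 0.407). So 2 of 3 windows were called lower in the hippocampus, where 33.8% of 19676 windows were called lower and 61.5% in either direction, and 1 of 3 was not called. A share of 13.7% of the windows had a lower value than Aqp4, 39.2% a lower one than Gfap and 49.8% a lower one than S100b. A difference larger in size than that of Aqp4 was held by 17.6% of the windows, so none of the 3 genes was extreme among them.

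Between thalamus and hippocampus, the values were 0.73 ± 0.192 for Aqp4 (SE, adjusted p = 0.00202, edgeR), 0.44 ± 0.101 for Gfap (adjusted p = 0.000605) and 0.39 ± 0.109 for S100b (adjusted p = 0.00339). Aqp4 was higher in the thalamus in 9 of 10 rats (not rat 5), Gfap in 8 of 10 and S100b in 9 of 10. All 3 windows were called higher, where 30.7% of 19676 windows were called higher and 56.7% in either direction. A share of 84.2% of windows lay below Aqp4, 71.0% below Gfap and 68.3% below S100b. A difference larger in size than that of Aqp4 was held by 26.6% of the windows, so none of the 3 genes was extreme. Without the 3 libraries, Aqp4 had 1.02 ± 0.127.

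Between thalamus and cortex, 0 of 3 windows were called, where 18.7% of 19676 windows were called by edgeR. S100b had 0.28 ± 0.105 (SE, adjusted p = 0.0573) and was higher in 8 of 10 rats, Gfap had 0.13 ± 0.0965 (adjusted p = 0.389) and Aqp4 had −0.16 ± 0.179 (adjusted p = 0.566). S100b was past the threshold with DESeq2 (0.28, adjusted p = 0.0387). It also was without rat 2, 4 or 6 in turn (adjusted p = 0.0378, 0.0483 and 0.0427) and without the 3 libraries (0.32, adjusted p = 0.0324). Aqp4 was past it without the 3 libraries, with −0.29 ± 0.112 (adjusted p = 0.0428). Over all windows, calls in this comparison rose from 3688 to 6655 without the 3 libraries. Unadjusted, the p of S100b was 0.0116.

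The scale set part of these sizes. Scaling by library totals moved the median log2 fold change of all windows from −0.10 to −0.34 for hippocampus against cortex and from 0.07 to 0.33 for thalamus against hippocampus, and the split of calls went from 5443 higher and 6650 lower to 2305 higher and 8411 lower for the first. Relative to the median of all windows, the differences for hippocampus against cortex were −0.79 for Aqp4, −0.21 for Gfap and 0.00 for S100b with TMM, and −0.80, −0.21 and 0.00 with library totals. For thalamus against hippocampus they were 0.67, 0.37 and 0.32 with TMM, and 0.65, 0.38 and 0.31 with library totals. The order of the 3 genes was the same with both. The filter on low counts moved them too: with at least 10 counts in every library, Gfap for hippocampus against cortex was −0.49 (adjusted p = 0.000525), and relative to the median of the windows left the values were −1.04 for Aqp4, −0.45 for Gfap and −0.24 for S100b. Without the 3 libraries they were −1.17, −0.11 and 0.05.

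The rank of a window within its own library needs no scaling. As percentile among 22307 rows, with equal counts counted as one part below and one part above, the median over 10 cortex libraries was 66.3 for Gfap (range 52.7 to 86.7), 89.8 for Aqp4 (55.9 to 97.1) and 34.3 for S100b (19.8 to 50.0). In the hippocampus it was 55.7 for Gfap (46.2 to 67.6), 49.7 for Aqp4 (38.5 to 92.5) and 43.5 for S100b (37.8 to 49.2). In the thalamus it was 67.9 for Gfap (60.4 to 75.5), 76.7 for Aqp4 (63.6 to 86.2) and 46.4 for S100b (37.4 to 52.5). Aqp4 thus stood above Gfap in cortex and thalamus and near it in the hippocampus, while S100b stood lowest of the 3 in each tissue by median. The highest place was that of Aqp4 in the cortex library of sham rat 1, 637 from the top. The mean percentile of TBI minus sham ranged from −10.3 (Aqp4, hippocampus, sham rat 5 included) to 5.75 (S100b, thalamus), with no adjusted p under 0.643.

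**Figure D4:**
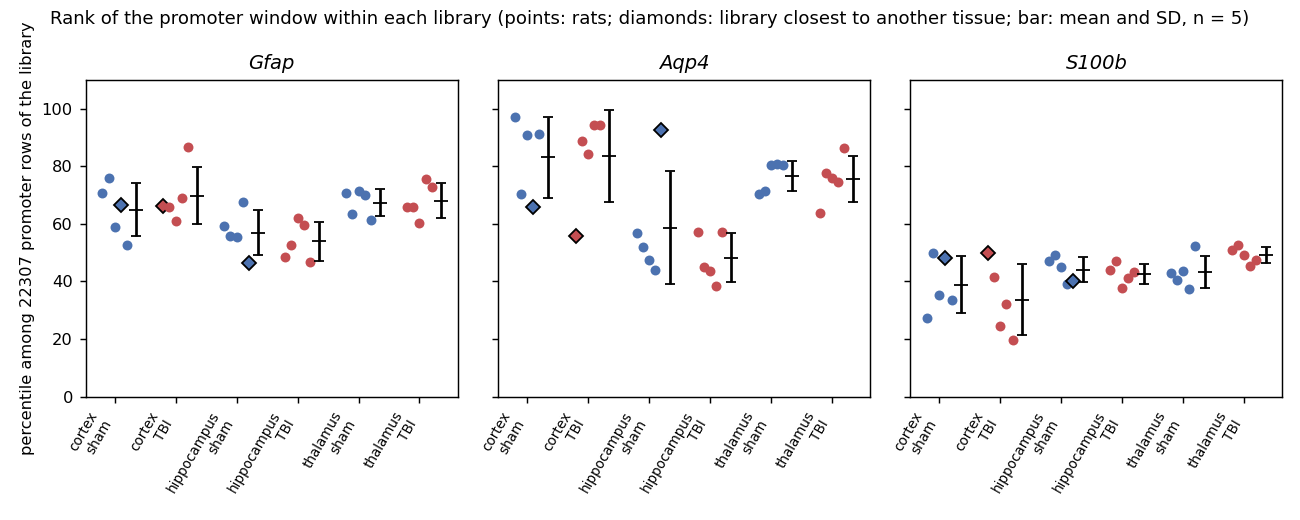
Percentile of each promoter window among the 22307 rows of its own library (vertical axis) in 6 groups of 5 rats, sham in blue and TBI in red, with the mean and SD beside the points and diamonds for the 3 libraries closest to another tissue. Aqp4 lies between 55.9 and 97.1 in the cortex and between 38.5 and 57.1 in the hippocampus except for sham rat 5 at 92.5.

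In the order of group means, the Gfap level ran from TBI thalamus through sham thalamus, TBI cortex, sham cortex and sham hippocampus to TBI hippocampus. The Aqp4 level ran from sham cortex through TBI cortex, sham thalamus, TBI thalamus and sham hippocampus to TBI hippocampus. The S100b level ran from TBI thalamus through sham thalamus, sham cortex, TBI cortex and sham hippocampus to TBI hippocampus. Every pair of neighbours in the 3 orders overlapped in range, and their means differed by less than the larger of their 2 SDs. For Aqp4, the overlap of TBI thalamus (43.3 to 64.5 CPM) with sham hippocampus rests on sham rat 5, since the other 4 sham rats reached 33.2 CPM at most.

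Whether TBI acted differently in the tissues was tested as an interaction. No window of 19676 was called in any of the 3 pairs of tissues (0%, edgeR), with 494 windows for hippocampus against cortex, 139 for thalamus against cortex and 301 for thalamus against hippocampus at an unadjusted p under 0.05. Each of these counts is also below a share of 0.05 of the windows, and whether this test was too strict was not tested either. DESeq2 called 1 window in the first and 0 in the others. The largest value among the 3 genes was that of Aqp4, 0.52 for thalamus against hippocampus (95% confidence interval −0.26 to 1.30) and −0.48 for hippocampus against cortex (−1.27 to 0.31), with adjusted p = 1.00 and 0.999. Without the 3 libraries these were −0.05 and 0.05. For Gfap the hippocampus against cortex value was −0.21 (−0.63 to 0.21), and for S100b the thalamus against hippocampus value was 0.27 (−0.18 to 0.71).

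The ratio of 2 of the windows within a library is free of scaling too and was added after the data were seen. The geometric mean of Aqp4 over S100b counts was 2.41 in cortex, 1.32 in hippocampus and 1.82 in thalamus. Between hippocampus and cortex the log2 difference was −0.87, with p = 0.00781 in the exact two-sided sign-flip test over 10 rats and an adjusted p of 0.141 over 18 ratio tests. Without rats 4, 5 and 6 it was −1.23, in the same direction in 7 of 7 rats (exact p = 0.0156, the smallest that 7 rats allow, adjusted p = 0.0703). These are the rats of the 3 libraries closest to another tissue, and leaving them out favours a larger difference. Aqp4 over Gfap was 1.41, 0.897 and 1.18 in the 3 tissues. No ratio passed the test between TBI and sham, with an adjusted p of at least 0.278 in the exact permutation tests.

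Beyond the promoter, the gene bodies held few counts. Over the 10 libraries of a tissue, Gfap had 18 counts in cortex, 32 in hippocampus and 48 in thalamus, against 867, 509 and 1377 in its promoter window. Aqp4 had 3, 4 and 25 counts in its gene body, with 1268, 516 and 1641 in its promoter window. S100b had 6, 6 and 11 against 504, 341 and 897. Few counts were usual there: 6605, 12225 and 10404 of the 26404 gene body rows held none in cortex, hippocampus and thalamus. Gfap still had more than 85.8%, 90.2% and 87.7% of these rows. Lengths of gene bodies were not used, so these counts cannot be compared per length with those of the promoter windows. They are no measure of how methylated the gene bodies were. Between TBI and sham, Gfap summed to 13 and 5 counts in the cortex, 15 and 17 in the hippocampus and 22 and 26 in the thalamus, too few to compare.

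The 3 windows correlated weakly with each other, above the median over all windows but for Aqp4 not far above it. Over the 30 libraries, which share tissue and scaling, Pearson's r of log2 CPM was 0.242 for Gfap and Aqp4, 0.323 for Gfap and S100b and 0.363 for Aqp4 and S100b. The median r with all windows was 0.054 for Gfap, 0.164 for Aqp4 and 0.055 for S100b. A lower r with Gfap was held by 79.9% of the windows than S100b had and by 69.7% than Aqp4 had. With Aqp4, 53.2% of the windows had a lower r than Gfap and 59.0% a lower r than S100b. With S100b, the shares were 78.7% for Gfap and 83.2% for Aqp4. The windows most like each were others: ENSRNOG00000021705 for Gfap (r = 0.810), ENSRNOG00000016117 for Aqp4 (r = 0.919) and ENSRNOG00000004160 for S100b (r = 0.762). Aqp4 had r above 0.5 with 32.9% of 19675 windows, Gfap with 3.12% and S100b with 4.72%. Lists of 17 astrocyte identity, 20 astrocyte reactivity, 10 microglia, 10 neuron and 8 oligodendrocyte genes could not be placed, since 0 of these 65 genes could be matched to an identifier, and no value is given for them.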

How the data were processed

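Rat MBD-seq counts of perilesional cortex, ipsilateral hippocampus and ipsilateral thalamus were used. Per the study's methods and labels, the authors mapped reads to Rnor_5.0 with STAR without splicing and deposited whole-number counts per promoter (5000 bp before to 200 bp after the start), exon and gene body, without normalization. Exon counts were not used. All 60 promoter and gene body columns matched a sample.

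Each tissue was tested with edgeR 4.0.16 (R 4.3.3) on all 22307 rows: filterByExpr (minimum count 10, total 15), TMM, quasi-likelihood F test, Benjamini-Hochberg threshold 0.05. Tissues and interactions were tested over 30 libraries. Because rows are ordered differently in the 3 tables, identifiers were matched after rows of an identifier with equal counts were merged, which left 19758, of which 19676 passed the filter. Log2 CPM, percentiles and ratios were compared by exact two-sided tests. Alternatives were DESeq2 1.42.0, library totals, other filters, a common-dispersion exact test, limma 3.58.1 voom, a rat block, leaving out libraries and leaving out each rat, 17 per TBI comparison and 16 per tissue comparison. Settings added after seeing the data were merged rows, the common-dispersion test with TMM, leaving out the 3 libraries closest to another tissue, and ratios. Genes, lists and the 7 libraries set aside (cortex rats 1, 4, 6 and 10, hippocampus rats 5 and 9, thalamus rat 6) were chosen with earlier results of these data known. The naming rule of this re-analysis took the 3 genes and the windows most correlated with each over the 30 libraries, of which the first is given. Each rat gave 1 library per tissue. P-values of TBI against sham within a tissue measure the spread between rats, except those of the common-dispersion exact test. That test used 1 dispersion for all windows, so a window's own spread between rats did not enter its p. The main tissue and interaction tests held no term for the rat, so their p-values measure the spread between libraries. The sign-flip p-values measure the spread of differences within rats. Only the quasi-likelihood test of TBI against sham was run on simulated counts, to see whether median fold changes were recovered. The counts were drawn with the same mean profile and dispersion for every library of a tissue. They held no libraries closest to another tissue, and the other tests were not checked in this way. Equal rat numbers mark the same animal. The deviations from group means of the same rat had a median r of 0.030 between cortex and hippocampus, 0.117 between cortex and thalamus and −0.055 between hippocampus and thalamus. Replicate libraries differed by more than counting noise (mean chi-square per window at least 2.05). Tables were made with pandas 2.3.3 and figures with matplotlib 3.10.9.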

Additional observations from a re-analysis of the deposited data

Results flagged for a closer look

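Among the 18 groups of 5 rats (3 genes, 3 tissues, sham and TBI), 2 held a library whose gap to the nearest of the others exceeded the 95% limit for the group's range (0.71), where chance gives about 1 in 20 groups, or 0.9 of 18. Aqp4 in the sham hippocampus had 84.9 CPM in rat 5 against 20.3 to 33.2 CPM in the others, a gap of 0.800 of the range, in the library whose profile over the other windows was closest to the cortex (r = 0.951 against 0.853). S100b in the TBI hippocampus had 17.1 CPM in rat 8 against 22.4 to 23.4 CPM in the others, a gap of 0.840 of the range, at 29 counts. The part of library identity or of counting error in these values was not tested.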

How the results depend on the processing

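The 5 calls of tissue differences of the 3 genes kept their direction under all 17 alternatives. Gfap, hippocampus against cortex, lost its call without the 7 libraries that stand apart (−0.23) and ranged from −0.37 to −0.23 without single rats. Calls were gained by S100b for hippocampus against cortex with at least 10 counts in every library (−0.28), for thalamus against cortex by S100b with DESeq2 (0.28) and without the 3 libraries (0.32), with 0.23 to 0.34 without single rats, and by Aqp4 without the 3 libraries (−0.29). With the rat as replicate block, values for hippocampus against cortex were −0.94 for Aqp4, −0.31 for Gfap and −0.11 for S100b, and the block changed no call of the 3 genes. No value of TBI against sham or of its interaction with tissue was called under any alternative (adjusted p at least 0.537 in the fits and 0.143 in the exact tests), but signs changed. With library totals Gfap had −0.04 in cortex and thalamus (also by the exact test), S100b 0.01 in the hippocampus against cortex interaction and Gfap 0.01 in the thalamus against cortex interaction. With voom weights, Aqp4 had 0.05 in the cortex and 0.01 in the thalamus, and Gfap −0.03 in the thalamus. Without the libraries that stand apart, Aqp4 had 0.09 in cortex, 0.07 in hippocampus, −0.10 and −0.08 in the thalamus against cortex and thalamus against hippocampus interactions, and S100b 0.07 in the hippocampus against cortex interaction. Without the 3 libraries, Aqp4 had 0.05 and −0.05 in the interactions of hippocampus against cortex and thalamus against hippocampus, and S100b 0.07 in the first. Without single rats, TBI against sham ranged from −0.03 to 0.13 for Gfap and −0.23 to 0.03 for Aqp4 in the cortex, from −0.73 to −0.01 for Aqp4 in the hippocampus and from −0.02 to 0.09 for Gfap in the thalamus. The interactions ranged from −0.13 to 0.07 for S100b and −0.69 to 0.04 for Aqp4 (hippocampus against cortex), and from −0.14 to 0.05 for Gfap and −0.09 to 0.18 for Aqp4 (thalamus against cortex). In the exact tests of log2 CPM, Gfap with library totals had −0.0392 in the cortex and −0.0583 in the thalamus. Without single rats these ranged from −0.02 to 0.139 (Gfap, cortex), −0.0306 to 0.0721 (Gfap, thalamus) and −0.244 to 0.0739 (Aqp4, cortex), and percentile differences from −1.14 to 2.64 (Gfap, thalamus), −3.86 to 7.34 (Aqp4, cortex) and −3.75 to 1.89 (Aqp4, thalamus). Over all windows, the count called by the common-dispersion exact test was 7 (library totals) and 25 (TMM) in cortex, 156 with both in hippocampus and 3 (TMM) in thalamus, where the quasi-likelihood test called 0. For thalamus against cortex the quasi-likelihood test called 1713 windows with library totals and 6655 without the 3 libraries, against 3688, and DESeq2 called 1 window in the hippocampus against cortex interaction. Both rank alternatives changed no direction. The causes were not tested. Depth limits S100b most, at 25 to 51 counts per hippocampus library.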
